A study of Mus musculus with 4 samples.

Results

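The 34 genes described here encode the machinery of mitosis: the cyclins and kinases that drive cells into division, the kinetochore and the spindle checkpoint, condensin, and the proteins of the spindle and of cytokinesis. They were taken as the rows of the deposited expression table whose Ensembl identifiers carry these gene symbols, and all 34 were found among 22809 genes. No measured value entered the choice of a gene, but the list was proposed with earlier results of these data known. Expression was measured by sequencing of poly(A) RNA from glomeruli, the capillary tufts in which the kidney filters blood, of mice 3 weeks of age. The groups were 2 libraries labelled Control (WT), with no treatment, and 2 libraries labelled HDAC KO, here called KO-labelled, with a podocyte-specific knockout. The series' title gives the deleted genes as Hdac1 and Hdac2, closely related histone deacetylases of corepressor complexes. Glomeruli of 2 mice went into each library, in 2 independent experiments. For the sex, the strain, the floxed alleles and the driver of the deletion, the sources used here give nothing. Podocytes are epithelial cells whose foot processes cover these capillaries. Endothelial, mesangial and parietal cells of the same glomeruli keep both genes by design.

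Mitotic genes are switched on together late in the cell cycle. In resting cells the DREAM complex, built on the MuvB core, holds them silent through a short promoter element, the cell cycle genes homology region (CHR). In cycling cells MuvB changes partners to B-MYB and FOXM1 and the same genes are activated, and the factor NF-Y, which binds CCAAT boxes, is a regular presence on their promoters. Their mRNAs are therefore widely read as a mark of dividing cells. Mature podocytes are known as cells that have left the cell cycle, while endothelial, mesangial, parietal and tubular cells and infiltrating leukocytes can divide.

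The promoters are shown first, because the CHR and the CCAAT box are what these genes are known to share. RefSeq starts in GRCm38.p6 were found for 30 of the 34 genes, with 32 starts between them, and the 250 bases before each start were searched. The CHR was searched as TTTGAA on either strand (TTCAAA on the other) and the CCAAT box as CCAAT on either strand (ATTGG on the other). A palindromic form of the CHR, TTCGAA, was searched apart. A run of 100 bases directly before the start follows, 5'→3' on the gene's strand, with matches in capitals, for 5 genes. Cdk1, Cdc20 and Top2a hold both elements there, Ccnb2 has CCAAT boxes in a regular row, and Spc25 is the gene whose level did not follow the others. These are chr10:69352913-69353012 (minus) for Cdk1, chr9:70421555-70421654 (minus) for Ccnb2, chr4:118437344-118437443 (minus) for Cdc20, chr11:99024190-99024289 (minus) for Top2a and chr2:69206214-69206313 (minus) for Spc25.
Cdk1: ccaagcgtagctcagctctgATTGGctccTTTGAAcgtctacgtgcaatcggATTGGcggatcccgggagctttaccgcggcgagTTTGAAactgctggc
Ccnb2: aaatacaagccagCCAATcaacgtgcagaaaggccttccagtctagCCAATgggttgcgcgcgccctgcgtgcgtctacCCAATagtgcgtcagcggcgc
Cdc20: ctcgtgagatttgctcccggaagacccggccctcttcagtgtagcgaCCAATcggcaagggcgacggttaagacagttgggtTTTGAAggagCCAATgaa
Top2a: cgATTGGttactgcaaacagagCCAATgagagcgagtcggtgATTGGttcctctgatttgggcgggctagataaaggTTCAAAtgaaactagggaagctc
Spc25: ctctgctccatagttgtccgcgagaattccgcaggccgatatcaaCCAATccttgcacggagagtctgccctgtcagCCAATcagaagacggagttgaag

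Of the 30 genes with a start, 23 (76.7%) held a CCAAT box in the 250 bases, against 39.3% of the 11336 tested genes with a RefSeq start. At least 2 boxes were found in 16 of the 30 (53.3%), against 14.3% of all. The CHR was found in 10 genes (33.3%), against 13.4% of all, and the same 10 genes also held a CCAAT box, a combination present in 4.93% of all. Those 10 were Cdk1, Ccnb2, Cdc20, Ube2c, Smc2, Ncapg, Top2a, Mki67, Prc1 and Ect2. The palindromic form was found in 2 genes, Bub1b and Top2a (6.67%, against 2.02% of all). These shares describe letters in fixed windows, and no binding was measured. In the member promoters 1 pair of matches overlapped, 2 CCAAT boxes of Ube2c on opposite strands.

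**Figure D1:**
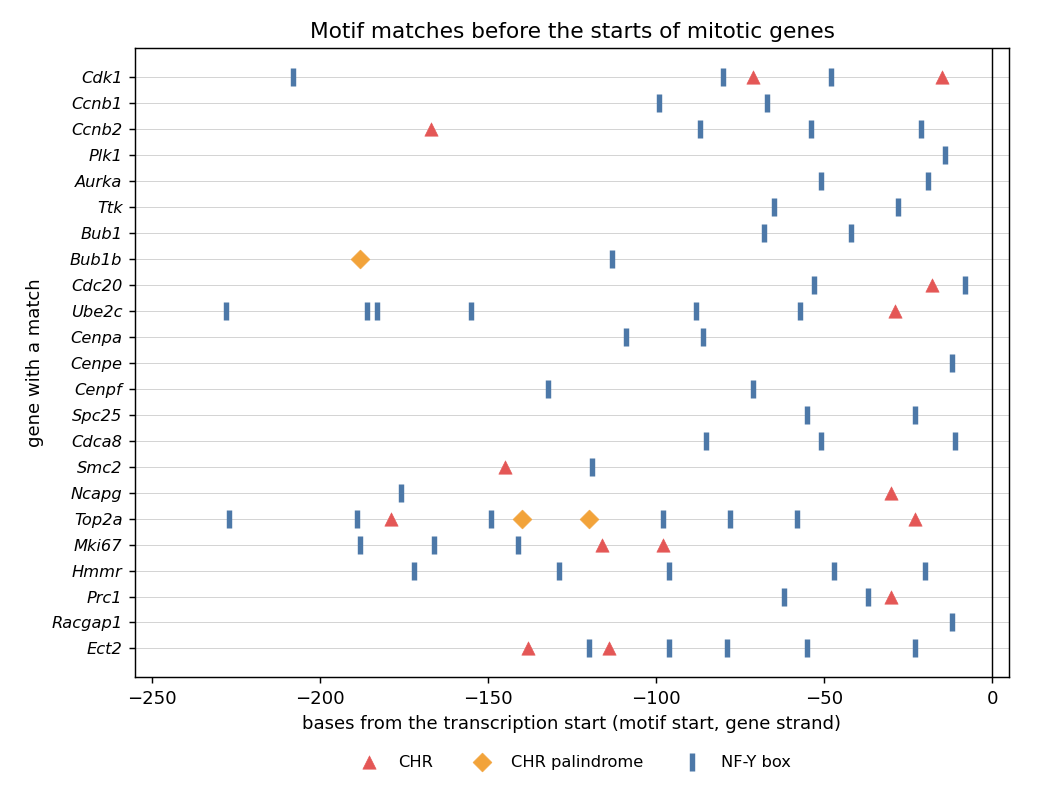
Matches to the CHR (triangles), its palindromic form (diamonds) and the CCAAT box bound by NF-Y (bars) in the 250 bases before the RefSeq starts of the 23 mitotic genes with a match. The x axis gives the distance of each match from the start in bases on the gene's strand, and the matches of Ect2 and Prc1 are those of both of their listed starts. In the 100 bases nearest the start 19 of 30 genes hold a CCAAT box.

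In glomeruli of the KO-labelled mice, 33 of the 34 mitotic genes had higher levels in both libraries than in both control libraries, which was so for 36.7% of all tested genes. Spc25, a subunit of the NDC80 complex of the kinetochore, was the exception. Across the 33 genes the KO-labelled mean was between 1.58 and 3.67 times the control mean, and it was over 2 times the control mean in 29 of them. Levels are in TPM, a share of a library's transcripts that is corrected for gene length and has the same total in every library. None of the 34 genes passed the test, so these are differences in level and not calls. The summed level of the 34 genes was 96.8 and 169 TPM in control replicates 1 and 2 and 271 and 324 TPM in KO-labelled replicates 1 and 2. The order of the libraries was the same in 26 of the 34 genes, from control replicate 1 through control replicate 2 and KO-labelled replicate 1 to KO-labelled replicate 2. The share of all tested genes in that order was not counted, so the 26 cannot be set against it. Of all tested genes, 72.4% were higher in control replicate 2 than in control replicate 1. In the KO-labelled libraries 64.2% were higher in replicate 2 than in replicate 1. The median level of all tested genes was also lowest in control replicate 1 and highest in KO-labelled replicate 2. It was 6.58 and 8.87 TPM in control replicates 1 and 2 and 8.70 and 9.51 TPM in KO-labelled replicates 1 and 2.

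The test was limma on log2(TPM + 1) over all 18612 genes with a mean of at least 1 TPM with Benjamini-Hochberg adjustment, and a gene was called when its adjusted p was below 0.05. All 34 mitotic genes entered it. The mean was taken over all 4 libraries. Ttk, Ndc80, Nuf2 and Ncapg had control means of 0.730, 0.654, 0.879 and 0.961 TPM, so they entered only through their higher KO-labelled levels. At an adjusted p below 0.05, 0.00537% of the tested genes were called in either direction, which is 1 gene, and it is not a mitotic gene. The lowest adjusted p of a mitotic gene was 0.112, for Ccnb2. At an unadjusted p under 0.05, 26 of the 34 genes lay higher and 0 lay lower, where 13.4% of all tested genes were higher and 4.46% lower. No filter on the mean left 24 of the 34 higher, beside 12.9% of all genes. Voom, also in limma, on reads recovered from the TPM put 32 of the 34 higher at that unadjusted threshold, with 14.1% of all genes it tested, and it called 0 after adjustment. The median log2 fold change of the 34 genes was 1.04, beside 0.17 for all tested genes. With median-ratio scaling the medians were 0.88 and -0.03, 24 of the 34 genes were higher at the unadjusted threshold beside 9.47% of all genes, and 1757 of all tested genes were higher and 1336 lower at the unadjusted threshold, in place of 2497 and 831. With the mitochondrial genes taken out of the TPM, 17 of the 34 were higher beside 8.92% of all genes, and of the 15 with a mean of at least 5 TPM, 13 were higher beside 15.2%. Without control replicate 2, 19 of the 34 genes were called higher, together with 9.04% of all tested genes, and 32 were higher at the unadjusted threshold beside 27.1%. Without KO-labelled replicate 1, 10 of the 34 were higher at that threshold beside 6.34%. Without KO-labelled replicate 2, 4 of 33 were higher at that threshold beside 5.27%, and 0 were called where 0.0819% of all genes were called higher.

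**Figure D2:**
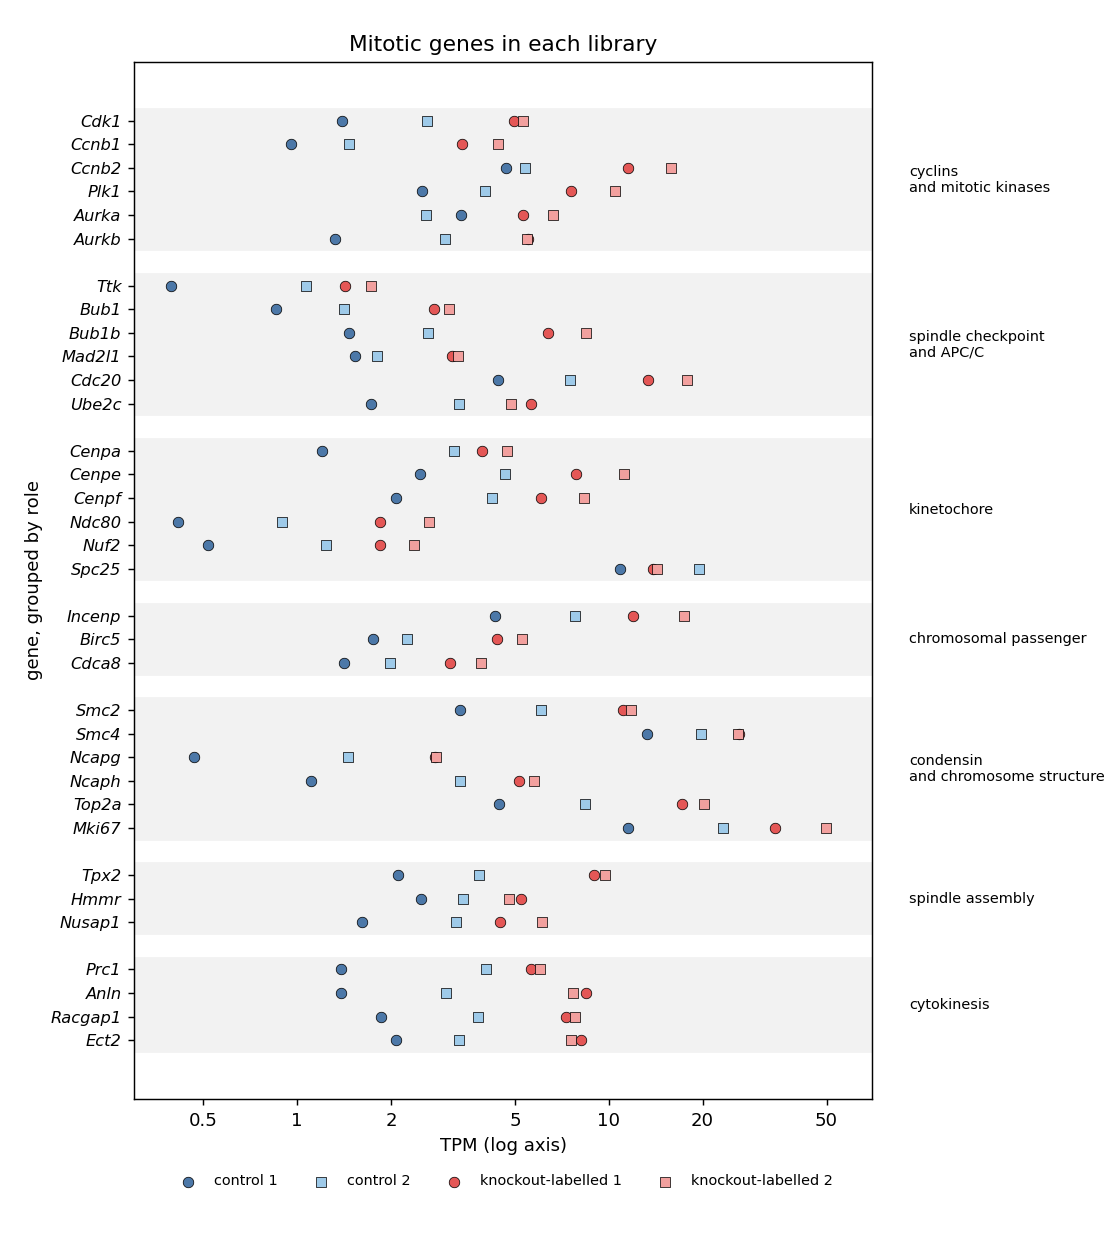
TPM of the 34 mitotic genes in each of the 4 libraries on a log axis, grouped by role, with circles for replicate 1 and squares for replicate 2 of the control (blue) and KO-labelled (red) group. The red points lie to the right of the blue points in 33 rows, and in the row of Spc25 they fall between the controls.

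The groups did not have the same spread. Control replicate 2 was above control replicate 1 in 33 of the 34 genes, Aurka being the exception, by a median of 0.65 log2 units over the list. In 12 genes it was at least 2 times higher, and the widest gap, 3.13 times, was that of Ncapg. The KO-labelled libraries lay closer together, with replicate 2 above replicate 1 in 28 genes, a median of 0.19 log2 units, and ratios between 0.864 and 1.46. Over all tested genes the same medians were 0.28 and 0.09 log2 units. Replicate 2 was above replicate 1 in 72.4% of all tested genes in the controls and in 64.2% in the KO-labelled libraries. The reads behind a gene ranged from 13 for Ttk to 779 for Mki67 in control replicate 1 and from 71 to 4181 in KO-labelled replicate 2, so the lower genes rest on few counts. With 2 libraries per group an exact permutation test cannot go below 0.333 two-sided, and none was made.

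Cdk1 and the B-type cyclins form the kinase complex that starts mitosis. Cdk1, the kinase itself (ENSMUSG00000019942.13, chromosome 10, 69335146 to 69352938, minus strand, GRCm38), was at 1.39 and 2.62 TPM in control glomeruli and at 4.95 and 5.31 TPM in the KO-labelled libraries. Its partner Ccnb1, cyclin B1, was at 0.957 and 1.46 TPM and at 3.38 and 4.42 TPM. Ccnb2, cyclin B2 (ENSMUSG00000032218.7, chromosome 9, 70407692 to 70421547, minus strand), was at 4.69 and 5.38 TPM and at 11.5 and 15.9 TPM. For these 3 genes the groups were apart upward, which was so for 36.7% of all tested genes. The lowest KO-labelled value was 1.89, 2.31 and 2.14 times the highest control value. Ccnb2 had the smallest p of the 34 genes, with a log2 fold change of 1.27 (SE 0.26, 95% interval 0.62 to 1.91, adjusted p = 0.112 by limma). Cyclin B2 mRNA stood above cyclin B1 mRNA in every library, by 3.40 to 4.90 times.

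Plk1, the polo-like kinase that acts at centrosomes, kinetochores and the midbody, was at 2.51 and 4.0 TPM in control glomeruli and 7.56 and 10.5 TPM in the KO-labelled libraries (log2 fold change 1.24, SE 0.31, adjusted p = 0.145). The Aurora kinases differed in their controls. Aurkb, the kinase of the chromosomal passenger complex, was at 1.32 and 2.98 TPM against 5.50 and 5.48 TPM. Aurka, the centrosome and spindle pole kinase, was at 3.37 and 2.59 TPM against 5.30 and 6.61 TPM, and it alone of the 34 genes was lower in control replicate 2 than in control replicate 1. All 6 cyclin and kinase genes were apart upward, beside 36.7% of all tested genes. Their log2 fold changes ranged from 0.81 to 1.27 with a median of 1.12, beside 0.17 for all tested genes.

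The spindle checkpoint holds cells in mitosis until every kinetochore is attached, and CDC20 then activates the anaphase-promoting complex (APC/C), whose E2 enzyme is UBE2C. Bub1b, which encodes the checkpoint protein BUBR1 (ENSMUSG00000040084.9, chromosome 2, 118598211 to 118641591, plus strand), was at 1.47 and 2.62 TPM in control glomeruli and 6.40 and 8.47 TPM in the KO-labelled libraries. Its log2 fold change was 1.49 (SE 0.33, 95% interval 0.66 to 2.31, adjusted p = 0.124). Cdc20 was at 4.40 and 7.51 TPM against 13.4 and 17.8 TPM. By log2 fold change, 1.49 and 1.28, these are the largest differences of the group. The lowest KO-labelled value was 2.44 times the highest control value for Bub1b and 1.78 times for Cdc20, beside 1.95 times for Bub1. The kinase genes Bub1 and Ttk were lower in level, with Bub1 at 0.858 and 1.42 TPM against 2.76 and 3.08 TPM. Ttk, the least abundant of the 34 genes, was at 0.395 and 1.06 TPM against 1.42 and 1.73 TPM, and its interval, from -0.29 to 1.48 log2 units, holds 0. Mad2l1, which encodes the checkpoint effector MAD2, was at 1.53 and 1.81 TPM against 3.15 and 3.28 TPM, with an interval from -0.06 to 1.38. Ube2c was at 1.72 and 3.31 TPM against 5.64 and 4.87 TPM. For Ube2c, 22.8% of the exon bases also lie in exons of Tnnc2 on the other strand, and the strand setting of the counting is not given, so its value may hold reads of both genes. All 6 genes were apart upward, beside 36.7% of all tested genes. Their median log2 fold change was 0.88, beside 0.17 for all tested genes.

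Kinetochore genes held both the common pattern and its exception. Cenpe, the kinesin that carries chromosomes to the spindle equator, was at 2.48 and 4.64 TPM in control glomeruli and 7.84 and 11.2 TPM in the KO-labelled libraries (log2 fold change 1.23, SE 0.35, adjusted p = 0.172). Cenpf, a protein of the outer kinetochore, was at 2.07 and 4.23 TPM against 6.08 and 8.31 TPM. Cenpa, the histone H3 variant that marks centromeres, was at 1.20 and 3.19 TPM against 3.93 and 4.73 TPM. In Cenpa the groups came closest among the 33 genes, the lowest KO-labelled value being 1.23 times the highest control value, and the interval from -0.19 to 1.81 holds 0.

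The NDC80 complex, the kinetochore's grip on microtubules, is built from the products of Ndc80, Nuf2, Spc24 and Spc25 in equal number. Ndc80 was at 0.414 and 0.893 TPM in control glomeruli and 1.85 and 2.65 TPM in the KO-labelled libraries, 3.44 times the control mean. Nuf2 was at 0.519 and 1.24 TPM against 1.85 and 2.38 TPM, and its interval from -0.13 to 1.63 holds 0. The levels of these partner genes were alike in each library, with Ndc80 at 0.721 to 1.12 times Nuf2. Spc24, which is not among the 34 genes, was at 1.28 and 2.04 TPM against 3.85 and 5.39 TPM. Spc25 (ENSMUSG00000005233.16, chromosome 2, 69193895 to 69206194, minus strand) was at 10.9 and 19.4 TPM in control glomeruli and at 13.9 and 14.3 TPM in the KO-labelled libraries, so that its groups overlapped. Its log2 fold change was -0.04 (SE 0.30, 95% interval -0.80 to 0.71, adjusted p = 0.959), or 0.35 without control replicate 2 (adjusted p = 0.227). It was the third most abundant of the 34 genes, and its TPM was 21.8 to 26.2 times that of Ndc80 in control glomeruli and 5.40 to 7.51 times in the KO-labelled libraries. Its exons share no bases with those of another annotated gene. No other gene of the 34 had groups that overlapped.

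The chromosomal passenger complex corrects faulty attachments and then guides cytokinesis, with INCENP as scaffold, survivin and borealin as its targeting subunits and Aurora B as its kinase. Incenp was at 4.32 and 7.82 TPM in control glomeruli and 11.9 and 17.5 TPM in the KO-labelled libraries (log2 fold change 1.17, SE 0.34, adjusted p = 0.178). Birc5, which encodes survivin, was at 1.76 and 2.25 TPM against 4.39 and 5.27 TPM, and Cdca8, which encodes borealin, at 1.41 and 1.99 TPM against 3.10 and 3.90 TPM. All 3 were apart upward, by 1.53, 1.95 and 1.56 times between the nearest libraries, beside 36.7% of all tested genes that were apart upward. The interval of Cdca8, from -0.03 to 1.51 log2 units, holds 0. Aurkb, the fourth member, is given with the kinases and was apart by 1.84 times.

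Condensin folds chromosomes in mitosis, and its core is the SMC2 and SMC4 pair. Smc2 was at 3.33 and 6.04 TPM in control glomeruli and 11.1 and 11.8 TPM in the KO-labelled libraries (log2 fold change 1.18, SE 0.31, adjusted p = 0.154). Smc4 was higher in level and differed least of the 33 genes by the ratio of means, at 13.3 and 19.8 TPM against 26.3 and 26.0 TPM, or 1.58 times. The ratio of Smc4 to Smc2 was accordingly 3.99 and 3.28 in control glomeruli and 2.36 and 2.20 in the KO-labelled libraries. The condensin I subunit genes Ncapg and Ncaph had the widest gaps between controls. Ncapg was at 0.465 and 1.46 TPM against 2.77 and 2.79 TPM, and Ncaph at 1.11 and 3.34 TPM against 5.16 and 5.77 TPM. Of the exon bases of Ncapg, 13.4% lie in Lcorl exons on the other strand.

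Among the other condensin subunits, which are not in the list of 34, Ncapd2 of condensin I was at 6.82 and 8.95 TPM in control glomeruli and 13.8 and 18.3 TPM in the KO-labelled libraries. Ncapg2 of condensin II was at 1.73 and 3.01 TPM against 4.58 and 5.69 TPM. Neither passed the test (adjusted p = 0.157 and 0.248 by limma). Over the 4 other subunits, Ncapd2, Ncapd3, Ncapg2 and Ncaph2, the median log2 fold change was 0.63. Of these, 3 (75%) were apart upward, beside 36.7% of all tested genes.

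Mki67 and Top2a are chromosome proteins rather than condensin subunits. Mki67, which encodes the Ki-67 antigen used to stain dividing cells (ENSMUSG00000031004.8, chromosome 7, 135689784 to 135716361, minus strand), was the most abundant of the 34 genes. It was at 11.6 and 23.3 TPM in control glomeruli and 34.1 and 49.7 TPM in the KO-labelled libraries, a log2 fold change of 1.27 (SE 0.37, 95% interval 0.35 to 2.20, adjusted p = 0.177). Top2a, the topoisomerase that untangles sister chromatids (ENSMUSG00000020914.17, chromosome 11, 98992943 to 99024189, minus strand), was at 4.44 and 8.40 TPM against 17.2 and 20.3 TPM (log2 fold change 1.46, SE 0.32, adjusted p = 0.123). Both were higher in each KO-labelled library than in either control. The 6 genes of condensin and chromosome structure had a median log2 fold change of 1.13.

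Spindle assembly and cytokinesis genes closed the sequence of mitosis. Tpx2, which activates Aurora A on the spindle, was at 2.11 and 3.84 TPM in control glomeruli and 8.96 and 9.71 TPM in the KO-labelled libraries (log2 fold change 1.41, SE 0.31, adjusted p = 0.124). Nusap1, a microtubule-bundling protein, was at 1.62 and 3.23 TPM against 4.47 and 6.13 TPM. Hmmr, a spindle-pole protein also known as a hyaluronan receptor, was at 2.50 and 3.41 TPM against 5.25 and 4.80 TPM, and its interval from -0.09 to 1.32 holds 0. All 3 were apart upward, beside 36.7% of all tested genes.

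Cytokinesis splits the daughter cells. Its genes had the largest median log2 fold change of the 7 role groups, 1.24 over 4 genes, although the difference between the role groups was not tested. Anln, which encodes anillin, the scaffold of the contractile ring (ENSMUSG00000036777.8, chromosome 9, 22332012 to 22389188, minus strand), was at 1.39 and 3.01 TPM in control glomeruli and 8.45 and 7.70 TPM in the KO-labelled libraries. That was the largest difference of the 34 genes, 3.67 times between means and 2.56 times between the nearest libraries, with a log2 fold change of 1.55 (SE 0.34, 95% interval 0.69 to 2.42, adjusted p = 0.124). Anillin is also made outside dividing cells as an actin-binding scaffold. Ect2, the exchange factor that activates RhoA at the furrow, was at 2.08 and 3.30 TPM against 8.14 and 7.57 TPM. Racgap1, which encodes a subunit of the centralspindlin complex, was at 1.86 and 3.80 TPM against 7.30 and 7.77 TPM. Prc1, which bundles the central spindle, was at 1.38 and 4.05 TPM against 5.62 and 6.02 TPM, and its interval from -0.08 to 2.03 holds 0. Of the exon bases of Prc1, 11.1% lie in Rccd1 exons on the other strand. In KO-labelled replicate 2, Anln and Ect2 were slightly lower than in replicate 1, while Racgap1 and Prc1 were slightly higher.

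**Figure D3:**
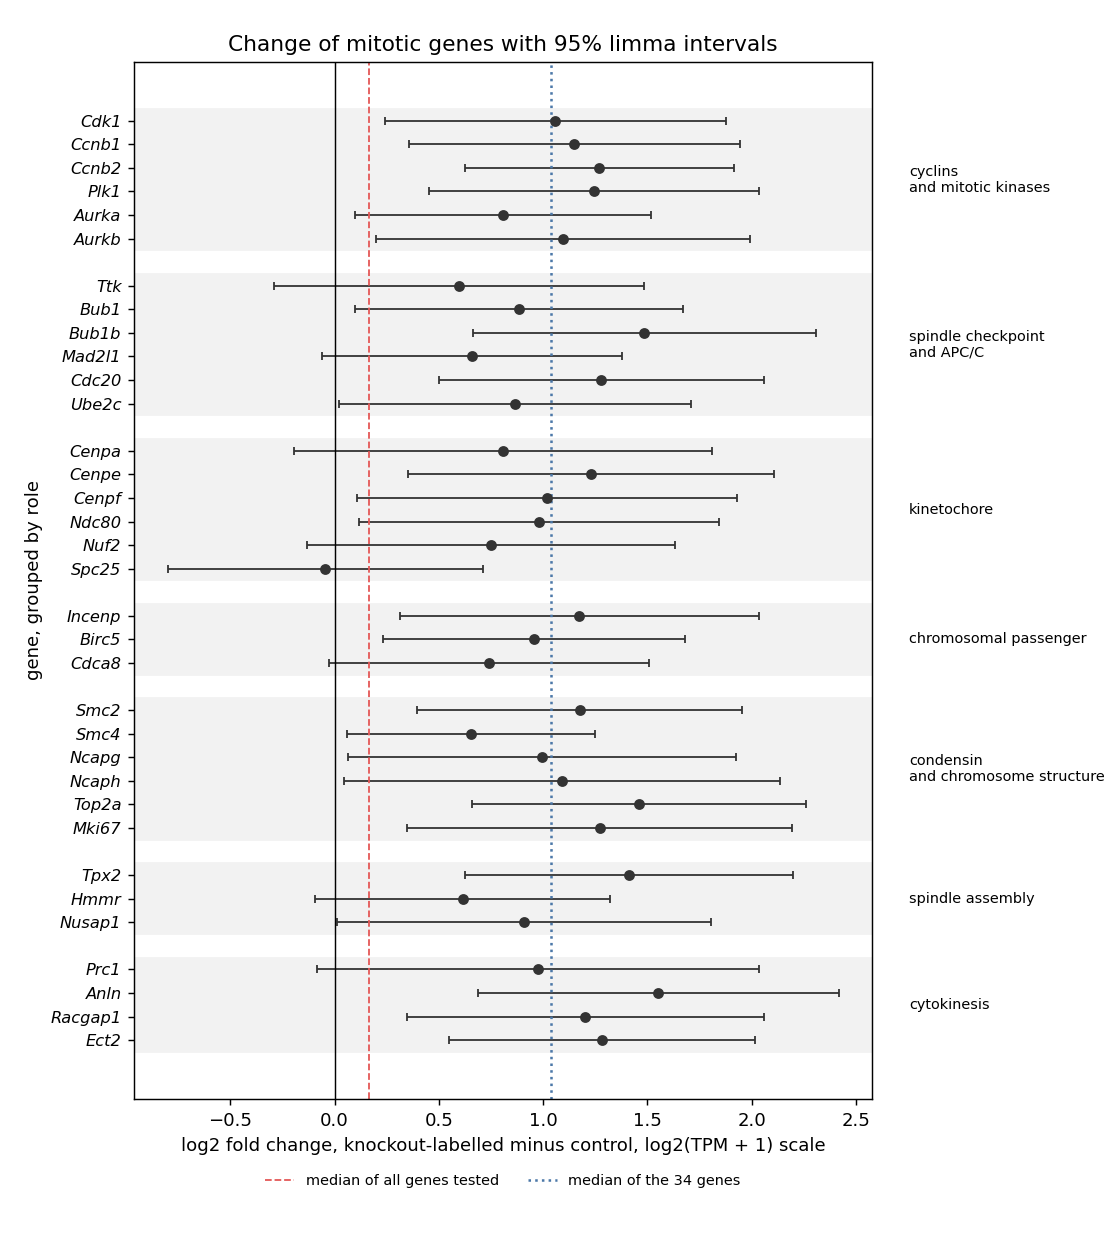
Log2 fold change of each of the 34 mitotic genes, KO-labelled minus control, on the log2(TPM + 1) scale, with 95% limma intervals from 2 libraries per group. The dashed line is the median of all tested genes (0.17) and the dotted line that of the 34 genes (1.04); 26 intervals lie above 0 and 8 hold 0.

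Other genes of mitosis, in 7 lists that cover further subunits and regulators, showed the difference in part. Of 118 such genes found, 110 were tested and 0 were called. Some of them, such as Trip13 with a control mean of 0.684 TPM, entered the test only through their KO-labelled levels. At the unadjusted threshold 33 of them (30%) were higher and 0 were lower, beside 13.4% and 4.46% of all tested genes, and their median log2 fold change was 0.47, beside 0.17. Both KO-labelled values were above both controls in 77 (70%) and below in 4, beside 36.7% and 14.3% of all tested genes. Among 20 tested further kinases, cyclins and phosphatases, 17 were apart upward and 1 downward. Cks1b, a small subunit of CDK complexes, was at 2.92 and 2.16 TPM in control glomeruli and 12.8 and 10.3 TPM in the KO-labelled libraries (adjusted p = 0.0988), and its relative Cks2 at 25.7 and 21.4 TPM against 23.4 and 19.9 TPM (adjusted p = 0.812). Ccna2, cyclin A2, was at 2.34 and 3.85 TPM against 8.66 and 9.08 TPM, and 12.5% of its exon bases lie in Exosc9 exons on the other strand. Of Cks1b, Cks2 and Ccna2, Cks2 was the one whose groups overlapped. Arpp19, an inhibitor of the phosphatase that opposes CDK1, was at 23.3 and 19.96 TPM against 19.2 and 17.9 TPM (adjusted p = 0.620 by limma), with both KO-labelled values below both controls.

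Among 17 tested genes of the spindle and of cytokinesis, 16 (94.1%) were apart upward and 0 downward, beside 36.7% and 14.3% of all tested genes. Tubb5, a beta-tubulin used well beyond the spindle, was at 40.2 and 63.9 TPM against 141 and 159 TPM. Arhgap11a, a RhoA regulator of cytokinesis, was at 4.32 and 5.79 TPM against 13 and 15.3 TPM. Cit, the citron kinase of the midbody, was at 7.34 and 7.42 TPM against 5.66 and 8.40 TPM, so its groups overlapped. Of 26 tested further kinetochore and centromere genes 18 (69.2%) were apart upward and 0 downward. Dsn1, a subunit of the MIS12 complex, was at 3.48 and 4.91 TPM against 8.75 and 9.55 TPM. Zw10, a checkpoint protein that also works in vesicle traffic, was at 15.3 and 19.6 TPM against 15.4 and 17.2 TPM.

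Of the 7 lists, those of the checkpoint and APC/C, of cohesin and of the DREAM and MuvB regulators lay nearest to the median of all genes. Further checkpoint and APC/C genes had a median log2 fold change of 0.29 over 21 genes. Of these, 11 (52.4%) were apart upward and 1 (4.76%) downward, beside 36.7% and 14.3% of all tested genes. Here Anapc2 was at 37.9 and 43.5 TPM in control glomeruli and 55.7 and 61.5 TPM in the KO-labelled libraries. Trip13, an ATPase that acts on MAD2, was at 0.344 and 1.02 TPM against 2.09 and 2.10 TPM. Anapc13 was at 25.2 and 19.0 TPM against 18.9 and 19.0 TPM, and 10.05% of its exon bases lie in Cep63 exons on the other strand. Cohesin and separase genes had a median of 0.27 over 9 tested genes, with 5 (55.6%) apart upward and 0 downward. Cdca5, or sororin, which protects cohesion, was at 1.19 and 1.32 TPM against 3.02 and 3.48 TPM, and Espl1, the separase itself, at 0.547 and 1.48 TPM against 2.79 and 4.05 TPM.

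The regulators themselves were read too. Genes of the DREAM and MuvB complexes and their partners had a median log2 fold change of 0.29 over 13 genes. Of these, 7 (53.8%) were apart upward and 2 (15.4%) downward, beside 36.7% and 14.3% of all tested genes. Foxm1, the activator of mitotic genes, was at 2.10 and 4.62 TPM in control glomeruli and 6.21 and 8.15 TPM in the KO-labelled libraries (log2 fold change 0.96, SE 0.37, adjusted p = 0.272). Tfdp1, the partner of E2F factors, was at 14.1 and 17.3 TPM against 19.7 and 23.2 TPM. Below both controls in each KO-labelled library were Lin52, a subunit of the MuvB core, at 11.6 and 12.7 TPM against 9.21 and 7.73 TPM (adjusted p = 0.335), and Rbl2, the pocket protein p130, at 25.1 and 23.6 TPM against 20.1 and 21.4 TPM (adjusted p = 0.565). None of the 13 passed.

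S phase genes, which come before mitosis in the cycle, had a median log2 fold change of 0.78 over 26 genes. Of these, 23 (88.5%) were apart upward and 1 (3.85%) downward, beside 36.7% and 14.3% of all tested genes. Rrm2, a subunit of ribonucleotide reductase, was at 10.6 and 12.1 TPM in control glomeruli and 26.3 and 25.3 TPM in the KO-labelled libraries, and Uhrf1, which keeps DNA methylation through replication, at 3.19 and 7.33 TPM against 18.5 and 20.7 TPM. None of the 26 passed (lowest adjusted p = 0.106 by limma).

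The make-up of the libraries differed along with the mitotic genes. In bulk RNA, more dividing cells and more mitotic RNA per cell cannot be told apart, and neither can the cell type that divides. Markers of macrophages and other leukocytes summed to 65.7 and 162 TPM in control glomeruli and to 792 and 865 TPM in the KO-labelled libraries, and all 11 tested of 12 were apart upward. Parietal epithelial markers summed to 183 and 260 TPM against 858 and 693 TPM, with all 10 apart upward. Among all tested genes 36.7% were apart upward. Lymphocyte markers summed to 1.61 and 4.01 TPM against 5.40 and 7.91 TPM, with 7 of 8 found, 2 of them tested, and Cd3e, Cd3d and Ms4a1 at 0 in control replicate 1. Their part in the difference of the mitotic genes was not tested.

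Podocyte markers summed to 359 and 826 TPM in control glomeruli and to 142 and 377 TPM in the KO-labelled libraries, with Nphs1, which encodes nephrin of the slit diaphragm, among the 3 of 10 that were apart downward. Among all tested genes 36.7% were apart upward and 14.3% downward. Glomerular endothelial markers summed to 374 and 811 TPM against 312 and 656 TPM, with 0 of 10 apart, and mesangial and smooth muscle markers to 195 and 254 TPM against 235 and 297 TPM, with 3 of 10 apart upward and 1 downward. Erythroid markers summed to 40.5 and 129 TPM against 19.2 and 84.3 TPM, with 0 of 4 apart. In the sums of each of these 4 lists replicate 2 was higher than replicate 1 in both groups. The preparations held tubule as well. Proximal tubule markers summed to 39422 and 6522 TPM in control glomeruli and 3256 and 3876 TPM in the KO-labelled libraries, with 9 of 10 apart downward. The gap between the control sums lay mostly in Kap, a kidney androgen-regulated protein, at 31063 and 987 TPM in control glomeruli and 1004 and 1202 TPM in the KO-labelled libraries. The list's median level was 609 and 390 TPM in control glomeruli against 122 and 180 TPM. Markers of the distal tubule and collecting duct summed to 2759 and 2648 TPM against 2471 and 2744 TPM, but 6 of 10 were apart downward and 1 upward, and their median log2 fold change was -0.73. Control replicate 1, with the highest median level of the proximal tubule markers, had the lowest level of 33 of the 34 mitotic genes. Without control replicate 1 the median log2 fold change of the 34 genes was 0.77, beside 0.04 for all tested genes. The part of the tubule in that difference was not tested.

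The deletion does not show in the targeted transcripts. Hdac1 was at 19.3 and 18.6 TPM in control glomeruli and 22.9 and 22.5 TPM in the KO-labelled libraries, and Hdac2 at 20.2 and 24.1 TPM against 23.5 and 20.9 TPM. Other glomerular cells keep both genes by design. Which cells made these transcripts was not measured, and why the deletion does not show was not tested. The direction of each difference given here rests on the labels. Recovered reads numbered between 12876939 and 20943138 per library, and from 38.7% to 46.5% of the TPM belonged to mitochondrially encoded genes.

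**Figure D4:**
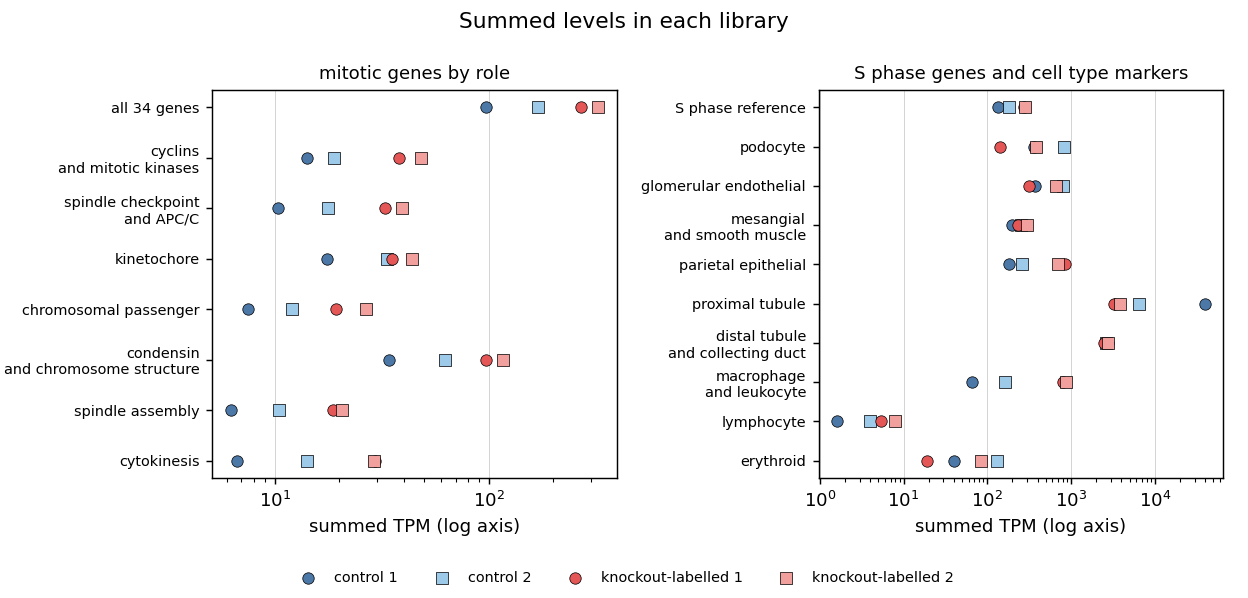
Summed TPM per library on log axes, for the 34 mitotic genes and their 7 role groups (left) and for S phase genes and 9 lists of cell type markers (right), with circles for replicate 1 and squares for replicate 2 of the control (blue) and KO-labelled (red) group. Sums of mitotic genes were higher in both KO-labelled libraries in every role group, as were those of macrophage, parietal and lymphocyte markers, while proximal tubule sums were highest in control replicate 1.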

How the data were processed

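Poly(A) RNA of isolated glomeruli was sequenced in 4 libraries, and the authors deposited their TPM values for 22809 Ensembl genes as 1 table. Tools listed in the submitters' processing notes, without role or order, were DESeq2 1.30.1, featureCounts 2.0.0, STAR 2.7.9 and fastp 0.20, and the genome was GRCm38.p6. The annotation, gene filter and strand setting were not given in the sources used here. Columns were matched to samples by name. Symbols were found for 22762 genes.

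Whole reads were recovered by multiplying TPM by the union of exon lengths in GENCODE M21, which gave whole multiples of 1 step per library for 22176 genes (97.2%) within a relative tolerance of 1e-06. They served for depth and for voom.

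Genes with a mean of at least 1 TPM were fitted with limma 3.58.1 in R 4.3.3 (lmFit, eBayes with trend) on log2(TPM + 1), all 4 libraries, no covariate, adjusted over 18612 genes by Benjamini-Hochberg and called below 0.05; every adjusted p is from limma. Fold changes on this scale understate the change of low genes. Replicates are pools of mice, and same-numbered libraries were not taken as pairs.

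The members, lists and role groups were chosen with earlier results of these data known. Named were all 34 members, Hdac1, Hdac2 and, per further list, in each direction the 2 genes of smallest p, of which 1 is not reported here. Nphs1, Kap, Cd3e, Cd3d, Ms4a1, Ncapd3 and Ncaph2 were named after their values were seen. Medians and counts describe lists and are no tests. Promoters are from RefSeq. Python 3.11.15, numpy 2.4.6, pandas 2.3.3 and matplotlib 3.10.9 were used. Alternatives were other pseudocounts, filters, scalings and variance models, a replicate block, voom and each library left out.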

Additional observations from a re-analysis of the deposited data

How the results depend on the processing

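The median log2 fold change of the mitotic genes was 1.04 and became 0.54 with a pseudocount of 5, where the added constant compresses low genes. Under every other alternative it moved by less than the spread between replicates, and leaving out 1 library gave 0.77 to 1.36. No mitotic gene was called except without control replicate 2 (19), so single libraries left out gave 0 to 19, and 0 to 28 for the further lists. Those calls rest on the spread between the KO-labelled libraries, since the lone control is assumed to vary like them. Over all tested genes 1 was called, 0 with quantile normalization, without trend or with voom, and 0 to 2224 with a library left out. Genes apart upward numbered 33, or 14 of 15 tested with a mean of at least 5 TPM. Higher at an unadjusted p under 0.05 were 26, with 13 of those 15, 17 without mitochondrial genes in the TPM, and 4 to 32 with a library left out. Of the log2 fold changes of single genes under alternatives, 436 kept direction and side of the threshold, 19 passed it, all without control replicate 2, and 1 turned: Spc25, from -0.04 to 0.35 without control replicate 2 and between -0.43 and 0.35 with a library left out. With the replicate number as a block, 0 mitotic genes were called (lowest adjusted p = 0.0650, 28 at the unadjusted threshold) and the median stayed at 1.04. Same-numbered libraries deviated with a correlation of 0.14 across genes, and the labels do not say that a number marks a shared experiment, so the block is no paired test. In the 100 bases before the start the palindromic CHR was found in 0% of genes, CHR with CCAAT box in 16.7%, CHR in 23.3% and CCAAT box in 63.3%. Low counts limit the least abundant genes.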
